A study of Mus musculus with 94 samples.

Results

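The genes described here are 34 genes of cholesterol synthesis, its control, the transport and storage of sterol, and its export, out of 20411 gene symbols in the count table of each fat depot. They were taken by name: 7 enzymes of the early pathway from acetyl-CoA to farnesyl diphosphate, 11 enzymes of the later pathway from squalene to cholesterol, 5 genes that control or distribute the sterol supply, 6 genes of efflux and its regulators, and 5 genes of the lysosome and of cholesterol ester storage. All 34 passed the filter on low counts in both depots. No uptake receptor is among them; uptake is touched only by Mylip, whose product removes lipoprotein receptors, and by the lysosomal genes.

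The samples are poly(A) RNA-seq libraries from snap-frozen fat of 47 male C57BL/6JBomTac mice, 94 libraries in all. Each mouse gave epididymal fat (eWAT) and inguinal fat (iWAT). Obese mice had eaten the high-fat diet D12492 for 18 weeks from 10 weeks of age and were 28 weeks old. Regression mice had the same 18 weeks of high-fat diet and then the low-fat diet D12450J for 2, 6 or 12 weeks, which made them 30, 34 or 40 weeks old. Lean mice ate the low-fat diet D12450J throughout and were taken at the age of each of these 4 groups. The obese group had 5 mice and the other 7 groups had 6 each. All mice had first been acclimatized on the low-fat diet, and cage mates were housed together, with no record here of which mice shared a cage. The animals were of 1 sex and 1 strain.

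Cells make cholesterol from acetyl-CoA by way of mevalonate, squalene and lanosterol. When sterol in the endoplasmic reticulum is scarce, SCAP carries the transcription factor SREBP2 (gene Srebf2) to the Golgi, where it is cut free and then turns on the synthesis genes. When sterol is plentiful, INSIG1 and INSIG2 hold SCAP back, and Insig1 is itself a target of the SREBP factors. Cholesterol that arrives in lipoproteins is freed from its esters in the lysosome by LIPA and leaves it by way of NPC2 and NPC1. Surplus is esterified again by SOAT1 and released by NCEH1. The sterol-sensing LXR receptors (Nr1h2 and Nr1h3) turn on the exporters Abca1 and Abcg1 as well as Apoe and Mylip. White fat holds a large pool of the body's cholesterol, mostly unesterified at the lipid droplet surface, and its macrophages take up lipid released by adipocytes.

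The promoters shown next carry the letters through which SREBP factors are known to act on some of these genes. They belong to the 3 genes that matched the first spelling given below, out of 28 found. In obese eWAT Hmgcs1 rose, Acat2 fell and Insig1 passed no test. In obese iWAT, and at 2 weeks in both depots, Insig1 and Acat2 both fell. Each promoter is the 250 bases before the gene's start in RefSeq (GRCm38.p6), 5′ to 3′ on the gene's strand. Capitals mark matches on either strand to CACNCCAC, a spelling of the sterol response element, and to CCAAT, the letters bound by factor NF-Y.
Insig1 (chr5:28071162-28071411, plus strand): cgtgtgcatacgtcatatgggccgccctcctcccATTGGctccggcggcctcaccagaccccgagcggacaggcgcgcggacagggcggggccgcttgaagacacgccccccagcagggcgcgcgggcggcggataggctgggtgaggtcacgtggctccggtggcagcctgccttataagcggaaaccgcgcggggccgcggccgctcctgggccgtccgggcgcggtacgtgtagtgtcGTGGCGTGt
Hmgcs1 (chr13:119690101-119690350, plus strand): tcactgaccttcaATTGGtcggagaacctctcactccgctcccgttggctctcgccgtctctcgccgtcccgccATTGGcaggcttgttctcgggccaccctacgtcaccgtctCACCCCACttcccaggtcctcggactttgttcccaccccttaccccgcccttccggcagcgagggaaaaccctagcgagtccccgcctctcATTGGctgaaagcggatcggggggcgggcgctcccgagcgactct
Acat2 (chr17:12960726-12960975, minus strand): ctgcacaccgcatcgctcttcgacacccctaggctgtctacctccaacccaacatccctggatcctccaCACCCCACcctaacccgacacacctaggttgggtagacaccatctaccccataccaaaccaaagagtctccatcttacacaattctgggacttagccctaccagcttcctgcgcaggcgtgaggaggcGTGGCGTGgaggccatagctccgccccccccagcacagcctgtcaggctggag
In Insig1 the CACNCCAC match starts 9 bases and the CCAAT match 216 bases before the gene's start. That start is the RefSeq one. GENCODE M21 starts Insig1 at 28071363, inside the window, so by GENCODE the CACNCCAC match lies within the gene. In Hmgcs1 the CACNCCAC match starts 136 bases before the start, and CCAAT matches start 237, 176 and 45 bases before it. Acat2 holds CACNCCAC matches 181 and 53 bases before the start and no CCAAT. Of the 34 genes, 28 were found in the promoter table. CACNCCAC, whose match on the other strand reads GTGGNGTG, was found in these 3 of 28 genes, which is 3 of their 37 windows, and in 5.29% of 32851 windows of the same length over all genes. CCAAT, or ATTGG on the other strand, was found in 22 of the 28 genes and 22 of the 37 windows, and in 33.8% of all windows. In these windows no CACNCCAC match overlaps a CCAAT match. Other spellings of the element were searched before this one was kept, and a match is a description of the letters and not a binding site. The part of these letters in the changes of the genes was not tested.

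The eWAT libraries held between 1.32 and 25.9 M counts, the iWAT libraries between 6.27 and 34.3 M. The smallest was replicate 2 of the 2-week eWAT group. Adipocyte markers were high in every library, with a summed level over 6 genes (Adipoq, Plin1, Lipe, Cidec, Fabp4 and Pparg) of 7001 CPM (counts per 1 M library counts) or more. None of the 6 had 0 counts when summed over the libraries of any group. In eWAT the summed level of 10 macrophage markers was 792 to 4634 CPM (median 1326) in obese mice against 486 to 630.1 CPM (median 549) in lean mice, and 1276 to 4483 CPM (median 3777) against 506 to 743 CPM (median 569) at 2 weeks. At 6 weeks it was 784 to 5007 CPM (median 2004) against 475.04 to 715 CPM (median 638), and at 12 weeks 687 to 4653 CPM (median 3347) against 401.2 to 961 CPM (median 580.5). In iWAT it was 1029 to 3420.3 CPM (median 1959) in obese mice against 444.9 to 1212 CPM (median 998) in lean mice, and the groups overlapped there at every time. A few libraries also held markers of other tissue. In eWAT 5 epididymal duct markers (Akr1b7, Crisp1, Serpina1f, Spink8 and Defb42) summed to 1234 CPM in obese replicate 5, 2601 CPM in lean 2-week replicate 2 and 5784 CPM in lean 6-week replicate 5. With these libraries in the fit 2 of the 5 were called higher in obese mice, 4 lower at 2 weeks and 5 lower at 6 weeks. Without that library of each comparison 16 of the 34 genes were called in obese eWAT, 26 at 2 weeks and 5 at 6 weeks, against 15, 28 and 6 with it. Of 5 lymph node B cell markers 3 were called higher in eWAT at 12 weeks, and in iWAT these reached 1028 CPM and muscle markers 33234 CPM in single libraries; their part in the results was not tested. In bulk tissue a change in the share of a cell type and a change in RNA per cell cannot be told apart.

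In lean mice the levels per kilobase of exon (mean over the 24 lean libraries of a depot, eWAT first) spanned the list widely. Apoe, a lipoprotein component that accepts exported cholesterol, stood highest at 2513 and 2195 CPM per kb. Insig1 came next with 236 and 343, followed by Npc2 with 181 and 184. Among the enzymes Pmvk led with 74.9 and 87.1 CPM per kb, ahead of Sc5d, Acat2 and Hmgcs1. Soat1 was lowest with 1.32 and 1.64, and Tm7sf2, Idi1, Stard4, Npc1, Nceh1 and Hsd17b7 also lay under 5 CPM per kb in both depots. Below, levels are in CPM, which do not correct for gene length, so they are compared only between mice for the same gene.

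**Figure D1:**
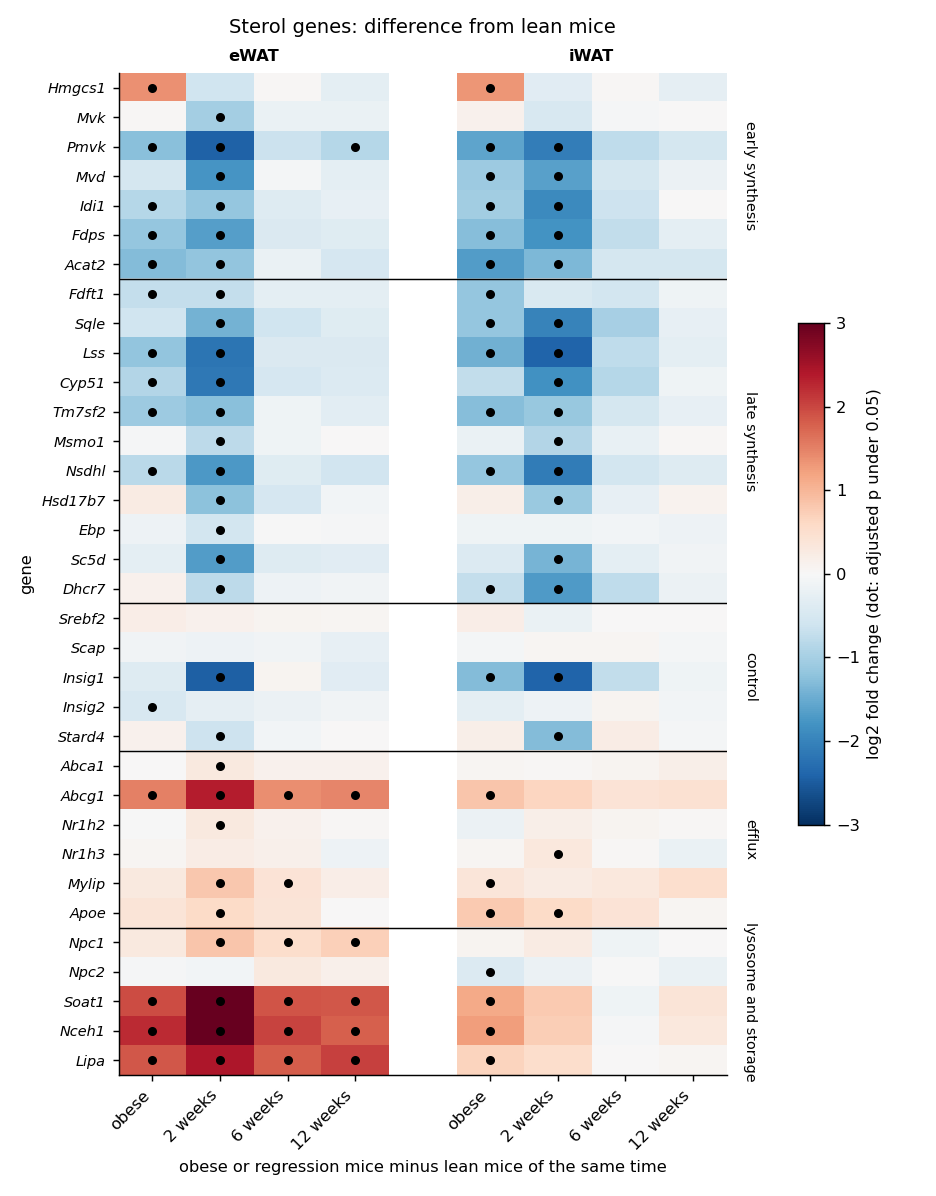
Log2 fold change of the 34 genes (rows, grouped by role) in obese mice and after 2, 6 and 12 weeks of regression, each against lean mice of the same time, in eWAT (left) and iWAT (right). Dots mark an edgeR adjusted p under 0.05. Synthesis genes are mostly blue (lower) in obese mice and at 2 weeks in both depots, with Hmgcs1 red in obese mice, and the 4 genes Abcg1, Soat1, Nceh1 and Lipa are red at all 4 times in eWAT.

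In the fat of obese mice many synthesis enzymes were lower than in lean mice, and HMG-CoA synthase was higher. In eWAT 9 of the 18 enzymes fell and 1 rose, where 9.31% of all genes fell and 14.1% rose at the same threshold (edgeR, adjusted p under 0.05), and their median log2 fold change was -0.66 against 0.00 over all genes. In iWAT 11 fell and 1 rose, where 15.5% of all genes fell and 14.7% rose, with a median of -1.06 against 0.02. The gene that rose in both depots was Hmgcs1, which encodes the cytosolic HMG-CoA synthase (chromosome 13, 119690379 to 119708260 on mm10). In eWAT Hmgcs1 measured 775, 569, 441.04, 452.6 and 451.3 CPM in the obese mice, against 158 to 291 CPM (median 189) in lean mice (log2 fold change 1.37 ± 0.26, adjusted p = 0.000248). Every obese mouse lay above every lean mouse. In iWAT Hmgcs1 measured 499.8, 711, 352, 646 and 372 CPM in the obese mice, against 106 to 384 CPM (median 193) in lean mice (log2 fold change 1.33 ± 0.28, adjusted p = 0.000387). There the groups overlapped by lean replicate 3 alone, which had 384 CPM.

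Acat2, the thiolase that supplies acetoacetyl-CoA to HMG-CoA synthase, went the other way. In eWAT Acat2 measured 90.9, 59.0, 70.8, 37.5 and 64.6 CPM in the obese mice, against 112 to 208 CPM (median 153) in lean mice (log2 fold change -1.29 ± 0.29, adjusted p = 0.0012). In iWAT Acat2 measured 65.3, 66.6, 56.7, 47.9 and 81.8 CPM in the obese mice, against 141 to 249 CPM (median 214) in lean mice (log2 fold change -1.69 ± 0.28, adjusted p = 2.31e-05). All 5 obese mice lay below all 6 lean mice in both depots. Pmvk, phosphomevalonate kinase, behaved alike: in eWAT Pmvk measured 78.0, 54.7, 49.5, 37.6 and 60.0 CPM in the obese mice, against 79.8 to 186 CPM (median 129.9) in lean mice (log2 fold change -1.25 ± 0.33, adjusted p = 0.00464). Its iWAT values were 48.7, 63.9, 29.4, 53.3 and 77.0 CPM in obese mice and 133 to 226 CPM (median 149) in lean mice (log2 fold change -1.58 ± 0.30, adjusted p = 9.92e-05). Neither depot showed overlap for Pmvk.

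Lss, which closes the sterol rings to make lanosterol, also fell in both depots. In eWAT Lss measured 75.2, 59.8, 36.5, 48.9 and 55.9 CPM in the obese mice, against 83.1 to 176 CPM (median 121) in lean mice (log2 fold change -1.18 ± 0.30, adjusted p = 0.00437). In iWAT Lss measured 42.6, 54.8, 21.2, 49.7 and 49.9 CPM in the obese mice, against 79.4 to 158 CPM (median 120.1) in lean mice (log2 fold change -1.44 ± 0.30, adjusted p = 0.000389). The groups did not overlap in either depot. Tm7sf2, a sterol C14 reductase, was 6.31, 4.54, 5.26, 4.63 and 7.22 CPM in obese eWAT against 8.35 to 16.5 CPM (median 11.2) in lean eWAT (log2 fold change -1.09 ± 0.29, adjusted p = 0.00583), again with no overlap, and its iWAT log2 fold change was -1.28 ± 0.21 (adjusted p = 1.5e-05). Fdps, farnesyl diphosphate synthase, was 15.9, 11.2, 4.56, 11.2 and 15.0 CPM in obese eWAT against 15.5 to 50.9 CPM (median 23.3) in lean eWAT (log2 fold change -1.16 ± 0.33, adjusted p = 0.00908). A single lean mouse, replicate 3 with 50.9 CPM, stood far above the other lean values, and the groups overlapped. In iWAT Fdps had a log2 fold change of -1.29 ± 0.35 (adjusted p = 0.00477) without overlap.

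The other enzymes called lower in eWAT of obese mice were Fdft1 (-0.72, squalene synthase), Cyp51 (-0.88, lanosterol demethylase), Idi1 (-0.86, isopentenyl diphosphate isomerase) and Nsdhl (-0.81, a C4 demethylation enzyme), all as log2 fold changes. In iWAT they were Fdft1 (-1.16), Nsdhl (-1.16), Sqle (-1.16, squalene epoxidase), Mvd (-1.08, mevalonate diphosphate decarboxylase), Idi1 (-1.04) and Dhcr7 (-0.73, which performs the final reduction of 7-dehydrocholesterol). Mvk, Msmo1, Hsd17b7, Ebp and Sc5d passed the test in neither depot, with log2 fold changes between -0.42 and 0.25. Several of the calls rested on single libraries. In eWAT Idi1 lost its call without obese replicates 2, 3 or 4 or lean replicates 1, 3 or 6 (adjusted p = 0.0536 to 0.105), and Cyp51 without obese replicates 2, 3 or 4 or lean replicates 3, 4 or 6 (adjusted p = 0.0683 to 0.0981). Nsdhl lost it without obese replicates 3 or 4 or lean replicate 3 (adjusted p = 0.0639 to 0.103) and Fdft1 without obese replicates 2 or 4 (adjusted p = 0.065 to 0.0675). In iWAT the same held for Dhcr7 without obese replicates 1 or 3 or lean replicates 3 or 4 (adjusted p = 0.0619 to 0.107) and for Mvd without obese replicate 3 or lean replicates 5 or 6 (adjusted p = 0.0546 to 0.0874). With only the compared groups in the fit, the iWAT calls of Mvd (adjusted p = 0.0771) and Dhcr7 (0.0566) were lost too. Without a count filter the eWAT calls of Idi1 (0.0506) and Cyp51 (0.0531) were lost.

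After 2 weeks on the low-fat diet nearly the whole pathway was lower than in lean mice in both depots. In eWAT 17 of 18 enzymes fell and none rose, where 17.1% of all genes fell, and the median log2 fold change was -1.24 against 0.02 over all genes. In iWAT 14 of 18 fell and none rose, where 9.37% of all genes fell, and the median was -1.51 against 0.00. The eWAT enzyme without a call was Hmgcs1 (log2 fold change -0.61 ± 0.25, adjusted p = 0.0527). In iWAT they were Hmgcs1, Mvk, Fdft1 and Ebp, with log2 fold changes between -0.48 and -0.14. All 18 lay below zero in both depots, and the 2-week and lean mice did not overlap for 12 enzymes in each depot. The share of all genes without overlap was not counted.

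Pmvk and Lss fell furthest among the enzymes of eWAT. In eWAT Pmvk measured 6.25 to 31.1 CPM (median 22.2) in 2-week regression mice, against 94.7 to 159.6 CPM (median 129.9) in lean mice (log2 fold change -2.44 ± 0.33, adjusted p = 1.52e-06). In eWAT Lss measured 22.7 to 28.5 CPM (median 24.1) in 2-week regression mice, against 84.7 to 149 CPM (median 112) in lean mice (log2 fold change -2.18 ± 0.30, adjusted p = 2.39e-06). The 6 regression values of Lss lay close together and far below the lean range, while Pmvk had a single very low value, 6.25 CPM in replicate 2, the library with the lowest total. In iWAT Lss measured 13.0 to 24.8 CPM (median 18.8) in 2-week regression mice, against 48.1 to 157 CPM (median 101) in lean mice (log2 fold change -2.41 ± 0.30, adjusted p = 5.01e-07). The iWAT levels of Pmvk were 17.4 to 45.3 CPM (median 27.0) in regression mice against 69.2 to 165 CPM (median 121) in lean mice (log2 fold change -2.06 ± 0.29, adjusted p = 3.1e-06). No overlap was seen for either gene in either depot.

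Cyp51 and Mvd were next in eWAT. Cyp51 was 20.8 to 29.4 CPM (median 24.9) in eWAT of regression mice against 84.2 to 149 CPM (median 103) in lean mice (log2 fold change -2.14 ± 0.32, adjusted p = 5.33e-06). Mvd was 4.86 to 9.90 CPM (median 6.97) in eWAT of regression mice against 17.9 to 30.7 CPM (median 23.7) in lean mice (log2 fold change -1.77 ± 0.32, adjusted p = 4.8e-05). In iWAT the largest drops after Lss included those of Nsdhl and Sqle. Nsdhl was 11 to 20.4 CPM (median 12.8) in iWAT of regression mice against 35.9 to 99.0 CPM (median 60.1) in lean mice (log2 fold change -2.09 ± 0.29, adjusted p = 3.11e-06). Sqle was 8.47 to 11.3 CPM (median 10.5) in iWAT of regression mice against 24.2 to 56.8 CPM (median 41.9) in lean mice (log2 fold change -2.0 ± 0.31, adjusted p = 1.68e-05). None of these 4 comparisons had overlapping groups. The smallest called drops were those of Ebp in eWAT (-0.56 ± 0.11, adjusted p = 0.000113; the sterol isomerase) and of Msmo1 in iWAT (-0.87 ± 0.24, adjusted p = 0.00958; the C4 methyl oxidase). In eWAT the call of Dhcr7 (-0.79) was lost without 2-week replicate 1 (adjusted p = 0.0619), and that of Idi1 (-1.17) was lost with only the compared groups in the fit (adjusted p = 0.0545).

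Markers of adipocytes and macrophages also differed beside these drops. In eWAT at 2 weeks 3 of 6 adipocyte markers were lower and 10 of 10 macrophage markers were higher, and the summed adipocyte level was 9547 to 19325 CPM (median 11994) in regression mice against 12913 to 20468 CPM (median 16804) in lean mice. Their part in the eWAT drops was not tested. In iWAT at 2 weeks 1 of 6 adipocyte markers was higher and none lower, 2 of 10 macrophage markers were higher, and the summed adipocyte level was 8419 to 15793 CPM (median 13006) in regression mice against 7001 to 15129.9 CPM (median 11877) in lean mice. In obese mice 2 of 6 adipocyte markers were lower in eWAT and 3 of 6 in iWAT, and all 10 macrophage markers were higher in both depots; their part was not tested.

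**Figure D2:**
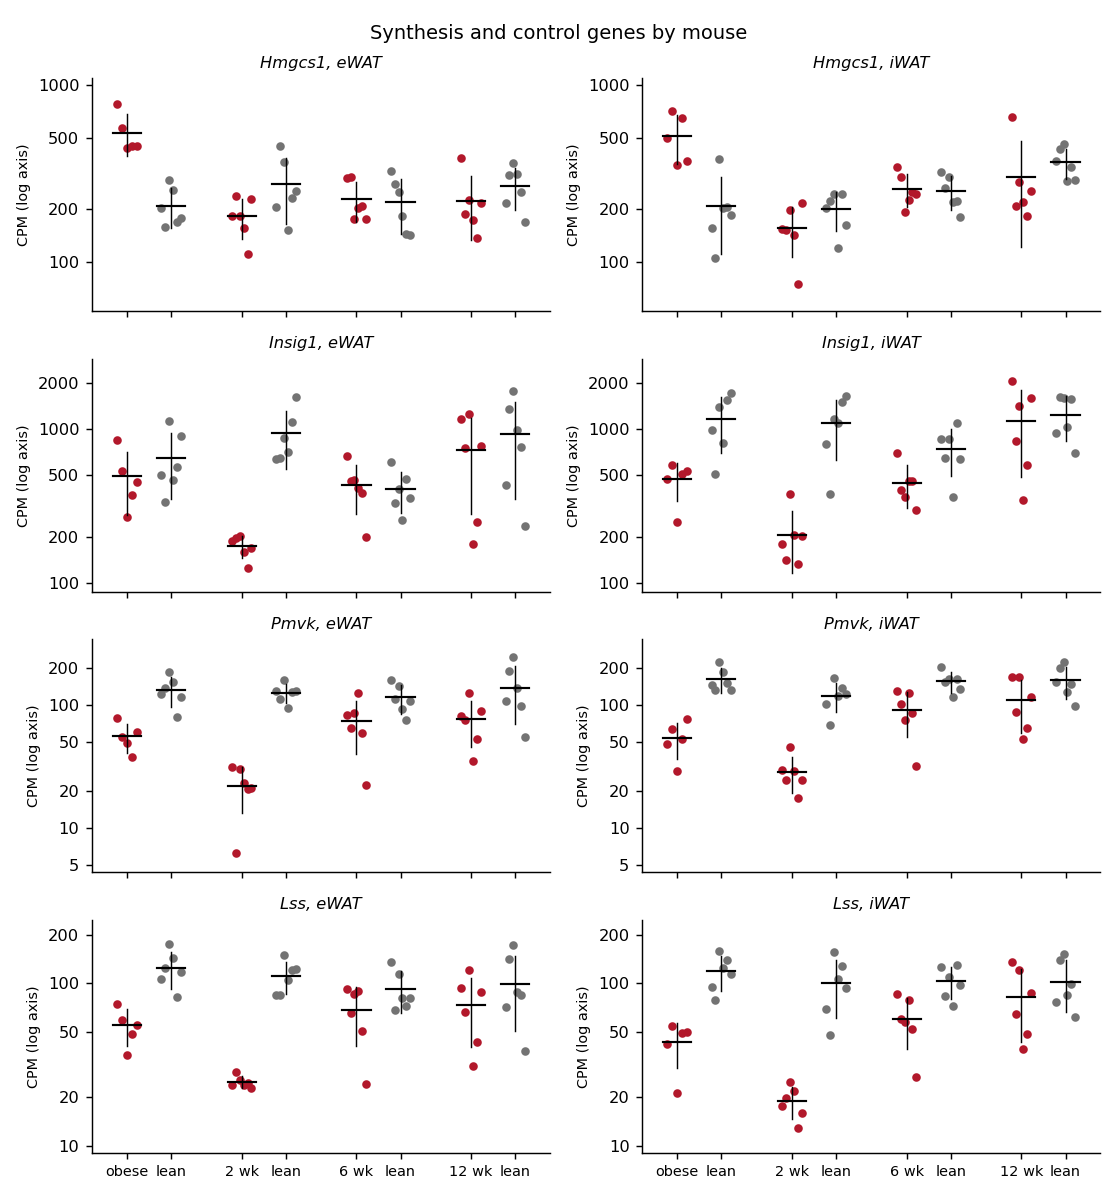
Levels of Hmgcs1, Insig1, Pmvk and Lss in CPM (log axis) in every mouse, in eWAT (left) and iWAT (right); red points are obese or regression mice, grey points the lean mice of the same time, and black lines the mean ± SD (n = 5 obese mice, 6 in each other group). Hmgcs1 of eWAT was 441.04 CPM or more in all obese mice and 291 CPM or less in the lean mice of that time, and Lss was 28.5 CPM or less in eWAT of all 2-week mice.

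At 6 weeks no enzyme passed the test in either depot, although most still lay below lean mice. In eWAT none of 18 was called, where 7.58% of all genes were (5.56% higher, 2.02% lower), and 17 of 18 lay below zero with a median of -0.33 against -0.03 over all genes. Of these 2 had an unadjusted edgeR p under 0.05, and DESeq2 called no enzyme, where it called 1491 of all genes. With only the compared groups in the fit 1 was called, Sqle, which fell there, where 988 of all genes were called. In the fit of all groups the log2 fold change of Sqle was -0.60 ± 0.25 (adjusted p = 0.119). In iWAT none was called, where 1.04% of all genes were (0.554% higher, 0.482% lower), 17 of 18 lay below zero, and the median was -0.54 against -0.02. There 10 had an unadjusted edgeR p under 0.05, and DESeq2 called 1, Sqle. The largest iWAT difference was that of Sqle, with 9.03 to 32.5 CPM (median 21) in regression mice against 28.3 to 59.3 CPM (median 40.1) in lean mice (log2 fold change -1.01 ± 0.30, adjusted p = 0.0722). Dhcr7 of iWAT was the enzyme whose groups did not overlap (log2 fold change -0.75 ± 0.24, adjusted p = 0.0952). At 12 weeks Pmvk was the only enzyme with a call, in eWAT, where 4.51% of all genes were lower: it measured 35.2 to 126 CPM (median 78.7) in regression mice against 54.6 to 244 CPM (median 122) in lean mice (log2 fold change -0.85 ± 0.30, adjusted p = 0.0495), with overlapping groups. The call did not hold without 12-week replicates 1, 2, 4 or 5 or lean replicates 2, 3 or 4 (adjusted p = 0.0595 to 0.182), without a count filter (adjusted p = 0.0589) or with only the compared groups in the fit (0.113). In iWAT at 12 weeks no enzyme was called, where 0.0288% of all genes were (0.0216% higher, 0.00719% lower); 1 had an unadjusted edgeR p under 0.05, and the median was -0.18 against 0.04.

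Whether the differences from lean mice themselves changed was tested between neighbouring times. From obesity to 2 weeks in eWAT, 5 of the 34 genes went down and 1 went up, where 3.74% and 2.09% of all genes did (5.82% in either direction). Hmgcs1 changed by -1.98 ± 0.36 on the log2 scale (adjusted p = 0.000671), being above lean mice in obesity and not above them at 2 weeks. Insig1 changed by -2.05 ± 0.56 (adjusted p = 0.0216), Hsd17b7, a keto-reductase of the late pathway, by -1.48 ± 0.37 (adjusted p = 0.0105), Sc5d by -1.38 ± 0.40 (adjusted p = 0.0338) and Mvk by -1.06 ± 0.30 (adjusted p = 0.0284). In iWAT 3 went down and 1 went up, where 2.12% and 1.89% of all genes did (4% in either direction). They were Hmgcs1 with -1.68 ± 0.39 (adjusted p = 0.00952), Stard4 with -1.48 ± 0.35 (adjusted p = 0.0116) and Hsd17b7 with -1.28 ± 0.37 (adjusted p = 0.0413). Nr1h2 was the gene that went up, by 0.31 ± 0.09 in eWAT (adjusted p = 0.037) and 0.35 ± 0.10 in iWAT (adjusted p = 0.0323).

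From 2 to 6 weeks the differences rose again in 4 genes of eWAT, where 0.593% of all genes did, 0.202% did the opposite and 0.796% did either. Insig1 changed by 2.53 ± 0.55 (adjusted p = 0.0222), Pmvk by 1.80 ± 0.44 (adjusted p = 0.0334), Lss by 1.75 ± 0.41 (adjusted p = 0.0281) and Mvd by 1.71 ± 0.44 (adjusted p = 0.0487). In iWAT 1 gene did, where 0.101% of all genes did, 0.115% did the opposite and 0.216% did either. It was Stard4, by 1.52 ± 0.35 (adjusted p = 0.0465). Of the 18 enzymes 14 in eWAT and 13 in iWAT had an upward change with an unadjusted edgeR p under 0.05, and none a downward one. The share of all genes at that unadjusted threshold is not given here. DESeq2 called 8 of the 34 genes in eWAT and 4 in iWAT, all upwards. Over all genes DESeq2 also made more calls than edgeR in both depots. The larger DESeq2 counts therefore cannot be called particular to the 34 genes. These tests and the preceding ones share the 2-week libraries. Leaving out any single library ended no call of Hmgcs1, of Hsd17b7 in eWAT or of Stard4 from obesity to 2 weeks. The call of Insig1 from obesity to 2 weeks was lost without obese replicate 1 (adjusted p = 0.0643) and that from 2 to 6 weeks without 2-week replicate 5 (adjusted p = 0.0531). For Mvk the libraries were 2-week replicates 5 or 6 or obese replicate 1 or lean 2-week replicate 2 or lean obesity-time replicate 6 (adjusted p = 0.05 to 0.0708). The eWAT call of Sc5d was lost without 2-week replicates 4 or 5 or obese replicates 1 or 5 or lean 2-week replicate 6 or lean obesity-time replicates 1, 2 or 5 (adjusted p = 0.0514 to 0.0699). The eWAT call of Nr1h2 was lost without 2-week replicates 2 or 5 or obese replicates 1, 2 or 5 or lean 2-week replicates 2, 5 or 6 or lean obesity-time replicate 2 (adjusted p = 0.05 to 0.0821). The iWAT call of Nr1h2 was lost without 2-week replicate 1 or obese replicates 2, 4 or 5 or lean obesity-time replicates 1, 2, 3 or 4 (adjusted p = 0.0508 to 0.0695). The iWAT call of Hsd17b7 was lost without 2-week replicates 1, 2, 3 or 6 or obese replicates 1, 2, 4 or 5 or lean 2-week replicates 1 or 5 or lean obesity-time replicates 1, 2 or 4 (adjusted p = 0.0514 to 0.0917). The eWAT call of Lss was lost without 6-week replicates 1, 3 or 4 or 2-week replicates 4, 5 or 6 or lean 6-week replicates 2 or 5 or lean 2-week replicate 3 (adjusted p = 0.0517 to 0.064). The eWAT call of Pmvk was lost without 6-week replicates 1, 3 or 4 or 2-week replicates 4, 5 or 6 or lean 6-week replicates 2, 4 or 5 or lean 2-week replicates 1 or 3 (adjusted p = 0.0529 to 0.0909). The eWAT call of Mvd was lost without 6-week replicates 1, 2, 3, 4 or 5 or 2-week replicates 2, 4, 5 or 6 or lean 6-week replicates 2, 3, 4, 5 or 6 or lean 2-week replicates 1, 3, 5 or 6 (adjusted p = 0.0504 to 0.101). The iWAT call of Stard4 was lost without 6-week replicates 1, 2, 3, 4 or 5 or 2-week replicates 1, 2, 4 or 5 or lean 6-week replicates 1, 2, 3, 4 or 6 or lean 2-week replicates 3, 4, 5 or 6 (adjusted p = 0.0548 to 0.0999). With only the compared groups in the fit, Nr1h2 lost its calls in eWAT (adjusted p = 0.145) and iWAT (0.0516) and Hsd17b7 its iWAT call (0.0539). Without a count filter the calls of Mvd (0.061), Hsd17b7 in iWAT (0.0512) and Stard4 from 2 to 6 weeks (0.0689) were lost.

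Of the genes that control the supply, Insig1 moved most and the SREBP2 pathway's own factor and escort passed no test against lean mice. In eWAT Insig1 measured 125 to 201 CPM (median 178) in 2-week regression mice, against 643 to 1626 CPM (median 791) in lean mice (log2 fold change -2.44 ± 0.41, adjusted p = 2e-05). All 6 regression mice lay below all lean mice. In iWAT Insig1 measured 132 to 378 CPM (median 189) in 2-week regression mice, against 376 to 1640.1 CPM (median 1125) in lean mice (log2 fold change -2.41 ± 0.36, adjusted p = 1.08e-05). There the highest regression mouse, replicate 3 with 378 CPM, overlapped the lowest lean mouse with 376 CPM. In obese mice Insig1 was 843, 537, 270.1, 373 and 454.6 CPM in eWAT against 337 to 1124 CPM (median 534) in lean mice (log2 fold change -0.39 ± 0.41, adjusted p = 0.547), without a call. In iWAT Insig1 measured 473.4, 587, 249.7, 512 and 530.4 CPM in the obese mice, against 512 to 1721 CPM (median 1188) in lean mice (log2 fold change -1.30 ± 0.37, adjusted p = 0.00673). The groups overlapped in both depots. At 6 weeks Insig1 differed by 0.09 ± 0.39 in eWAT (adjusted p = 0.915) and -0.74 ± 0.35 in iWAT (adjusted p = 0.25), and at 12 weeks by -0.34 ± 0.39 (adjusted p = 0.553) and -0.13 ± 0.34 (adjusted p = 0.895). Its 12-week values were widely spread, from 180.3 to 1263 CPM in eWAT of regression mice and from 236 to 1777 CPM in lean mice.

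Insig2, the other retention protein, fell in eWAT of obese mice. It was 112, 85.9, 113, 73.6 and 113 CPM in obese mice against 99.0 to 185 CPM (median 133) in lean mice (log2 fold change -0.47 ± 0.13, adjusted p = 0.00791), with overlapping groups. This call was lost without obese replicate 4 (adjusted p = 0.0618) and with only the compared groups in the fit (adjusted p = 0.0836). Srebf2 was 59.6 to 109 CPM (median 93.5) in eWAT of 2-week mice against 65.1 to 111 CPM (median 79.4) in lean mice (log2 fold change 0.12 ± 0.17, adjusted p = 0.656), and 66.0 to 85.7 CPM (median 72.6) in iWAT against 66.5 to 132 CPM (median 77.7) (log2 fold change -0.20 ± 0.15, adjusted p = 0.369). In obese mice its log2 fold change was 0.21 ± 0.18 in eWAT and 0.20 ± 0.16 in iWAT (adjusted p = 0.444 and 0.374). Scap was 35.4 to 62.1 CPM (median 54.5) in eWAT of 2-week mice against 51.2 to 73.5 CPM (median 54.5) in lean mice (log2 fold change -0.16 ± 0.11, adjusted p = 0.247), and its log2 fold changes ran from -0.25 to 0.06 over the 8 comparisons without a call. Stard4, which carries cholesterol between membranes, was 6.14 to 7.09 CPM (median 6.62) in iWAT of 2-week mice against 13.8 to 22.6 CPM (median 15.5) in lean mice (log2 fold change -1.30 ± 0.25, adjusted p = 0.000267), with no overlap. In eWAT at 2 weeks its log2 fold change was -0.63 ± 0.24 (adjusted p = 0.0364), with overlap; 9 of 12 single libraries ended this call, namely 2-week replicates 1, 2, 3, 4 or 6 or lean replicates 1, 2, 4 or 6 (adjusted p = 0.0512 to 0.0979), as did dropping the count filter (0.0628).

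The cholesterol ester genes Soat1, Nceh1 and Lipa and the exporter Abcg1 moved the opposite way, and in eWAT they were called higher at all 4 times. Some obese, 6-week and 12-week mice lay in or near the lean range. The 6-week calls of Soat1, Nceh1 and Lipa were lost without 6-week replicate 6. Among the 5 lysosomal and storage genes 3 rose in obese eWAT, 4 at 2 weeks, 4 at 6 weeks and 4 at 12 weeks, where 14.1%, 18.6%, 5.56% and 10.8% of all genes rose. Their median log2 fold change was 1.87, 2.42, 1.82 and 1.80, against 0.00, 0.02, -0.03 and -0.01 over all genes. In iWAT 3 rose and 1 fell in obese mice, where 14.7% of all genes rose, and none passed the test later.

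Soat1, which esterifies cholesterol in the endoplasmic reticulum (chromosome 1, 156424525 to 156474331), was 30.0, 75.8, 27.4, 117 and 16.2 CPM in eWAT of obese mice against 7.55 to 21.3 CPM (median 12.3) in lean mice (log2 fold change 1.96 ± 0.45, adjusted p = 0.00158). Obese replicate 4 was highest and replicate 5 lay within the lean range. At 2 weeks it was 32.7 to 116 CPM (median 101) in regression mice against 6.44 to 18.0 CPM (median 9.93) in lean mice (log2 fold change 2.99 ± 0.46, adjusted p = 7.64e-06), with replicate 1 far below the other regression mice and yet above all lean mice. At 6 weeks it was 13.3 to 102 CPM (median 39.9) against 9.32 to 17.6 CPM (median 11.7) (log2 fold change 1.89 ± 0.45, adjusted p = 0.00876), and at 12 weeks 13.1 to 88.5 CPM (median 61.3) against 11.6 to 18.1 CPM (median 14.3) (log2 fold change 1.86 ± 0.44, adjusted p = 0.00407). At these later times some regression mice lay in the lean range and others far above it.

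Nceh1, which hydrolyses stored cholesterol esters, was 45.6, 149.8, 38.9, 209 and 27.8 CPM in eWAT of obese mice against 13.1 to 35.1 CPM (median 15.9) in lean mice (log2 fold change 2.25 ± 0.50, adjusted p = 0.00124), the lowest obese mouse lying inside the lean range. At 2 weeks it was 48.2 to 212 CPM (median 153) in regression mice against 12.2 to 30.0 CPM (median 17.1) in lean mice (log2 fold change 3.00 ± 0.50, adjusted p = 2.14e-05), without overlap. Its 6-week and 12-week log2 fold changes in eWAT were 2.03 ± 0.49 (adjusted p = 0.0103) and 1.80 ± 0.49 (adjusted p = 0.0101), with overlap at both times. Lipa, the lysosomal acid lipase, was 187, 445.9, 145, 655 and 88.3 CPM in obese mice against 73.4 to 95.4 CPM (median 83.2) in lean mice (log2 fold change 1.87 ± 0.42, adjusted p = 0.00112), the lowest obese mouse lying inside the lean range. At 2 weeks Lipa was 190.3 to 601 CPM (median 494) against 74.9 to 95.8 CPM (median 84.5) in lean mice (log2 fold change 2.42 ± 0.41, adjusted p = 2.36e-05), and at 12 weeks 85.7 to 526 CPM (median 392.3) against 71.1 to 82.5 CPM (median 79.2) (log2 fold change 2.04 ± 0.41, adjusted p = 0.00106). The groups did not overlap at these times, although the lowest 12-week mice were only just above the highest lean mouse. At 6 weeks its log2 fold change was 1.82 ± 0.40 (adjusted p = 0.00699), with overlap.

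Npc1, the membrane protein through which cholesterol leaves the lysosome, rose in eWAT at 2 weeks, when it was 56.2 to 99.6 CPM (median 85.9) in regression mice against 40.6 to 50.4 CPM (median 46.0) in lean mice (log2 fold change 0.84 ± 0.17, adjusted p = 0.000199), without overlap. At 12 weeks it was 33.7 to 79.0 CPM (median 72.3) against 35.8 to 48.2 CPM (median 38.0) (log2 fold change 0.71 ± 0.17, adjusted p = 0.00443), with overlap. The 6-week difference was smaller (log2 fold change 0.53 ± 0.17, adjusted p = 0.0462). Npc2, the soluble carrier that hands cholesterol to NPC1, passed the test in eWAT at no time. In iWAT it fell in obese mice, where it was 968, 909.6, 789, 971 and 649 CPM against 1016 to 1337 CPM (median 1107) in lean mice (log2 fold change -0.40 ± 0.13, adjusted p = 0.0181), without overlap; the call was lost without obese replicate 5 or lean replicate 3 (adjusted p = 0.0592 to 0.0811).

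Most of the 6-week calls of eWAT rested on a single library. Replicate 6 of the 6-week regression mice had the highest level of Soat1 (102 CPM), Nceh1 (204 CPM), Lipa (691 CPM) and Abcg1 (208 CPM) in its group and a macrophage marker sum of 5007 CPM. Without it 2 of the 34 genes were called in place of 6, and 178 of all genes in place of 1086. Lipa (adjusted p = 0.0513), Soat1 (0.0641), Nceh1 (0.0852) and Npc1 (0.222) lost their calls, and Abcg1 and Mylip kept theirs. Over all single libraries Npc1 lost its 6-week call without 6-week replicates 1, 2, 5 or 6 or lean replicates 1, 2, 3, 4, 5 or 6 (adjusted p = 0.0605 to 0.222), and it also lost it with the replicate number as a block (0.0634) and with only the compared groups in the fit (0.0696).

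**Figure D3:**
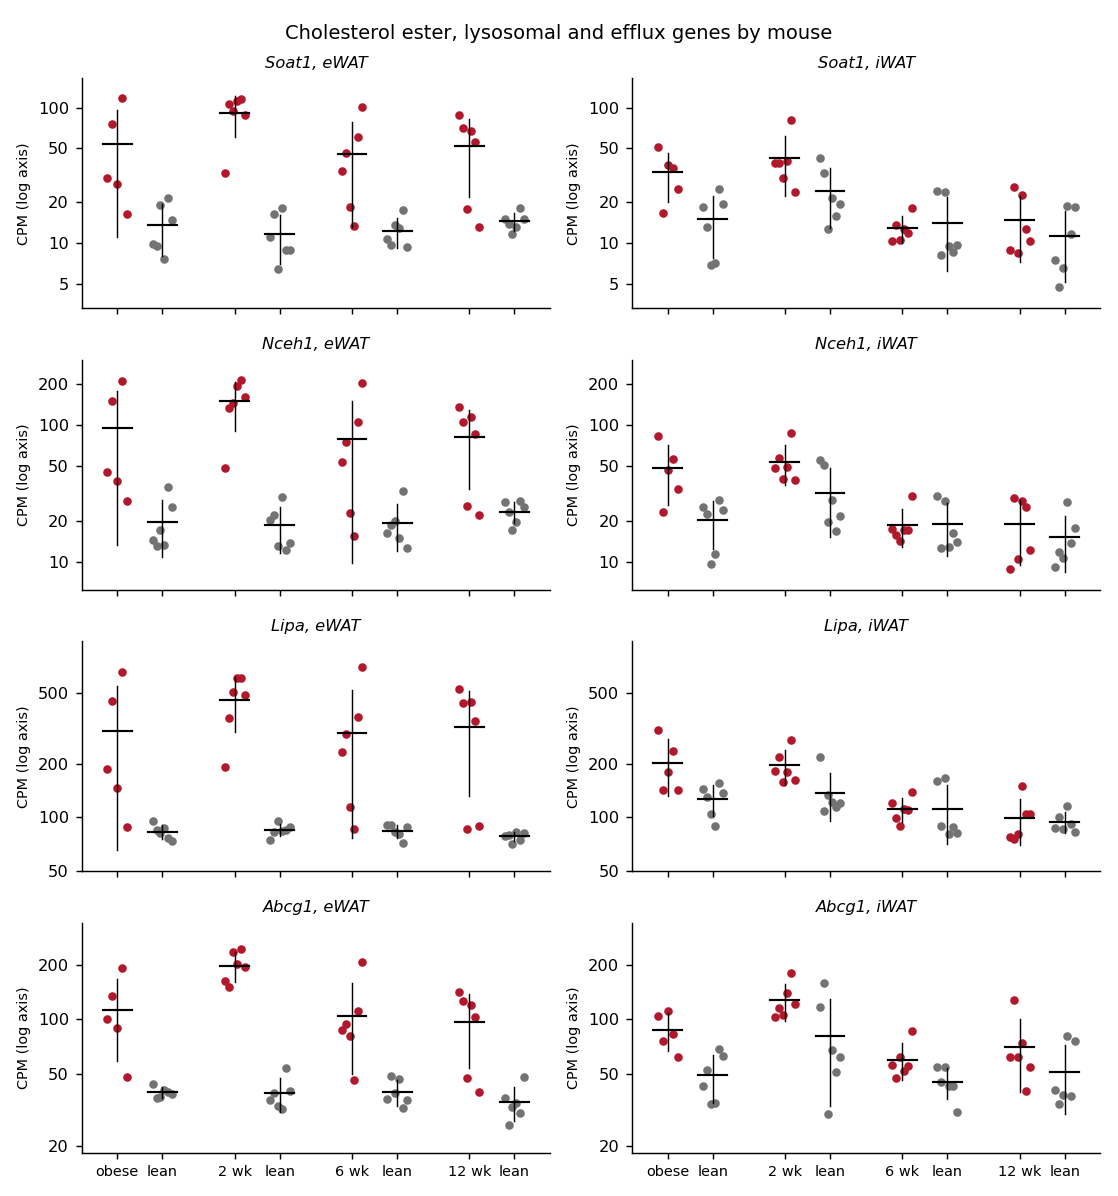
Levels of Soat1, Nceh1, Lipa and Abcg1 in CPM (log axis) in every mouse, in eWAT (left) and iWAT (right); red points are obese or regression mice, grey points the lean mice of the same time, and black lines the mean ± SD (n = 5 obese mice, 6 in each other group). In eWAT the 2-week mice stand above all lean mice of that time for each gene, and the obese, 6-week and 12-week mice spread from in or near the lean range upwards.

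Abcg1, which exports cholesterol to high-density lipoprotein, was 100.2, 135, 89.1, 193 and 48.2 CPM in eWAT of obese mice against 36.8 to 44.1 CPM (median 39.3) in lean mice (log2 fold change 1.51 ± 0.28, adjusted p = 0.000192), without overlap. At 2 weeks it was 151 to 244 CPM (median 198) in regression mice against 31.9 to 54.1 CPM (median 37.4) in lean mice (log2 fold change 2.35 ± 0.28, adjusted p = 2.53e-07), again without overlap. It was 46.3 to 208 CPM (median 91.0) against 32.4 to 48.6 CPM (median 37.7) at 6 weeks (log2 fold change 1.40 ± 0.27, adjusted p = 0.00372) and 39.6 to 141 CPM (median 111) against 26.1 to 48.1 CPM (median 33.5) at 12 weeks (log2 fold change 1.47 ± 0.27, adjusted p = 0.000812), with overlap at both times. In iWAT Abcg1 measured 104, 76.4, 111, 83.5 and 62.0 CPM in the obese mice, against 34.1 to 68.4 CPM (median 47.5) in lean mice (log2 fold change 0.83 ± 0.29, adjusted p = 0.0268), with overlap; this call was lost without obese replicates 1 or 3 or lean replicates 1, 3 or 4 (adjusted p = 0.0505 to 0.0747).

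Abca1, the exporter that loads apolipoproteins with cholesterol, showed smaller differences than Abcg1, by the values of each. In eWAT it was 305, 357, 370.2, 343 and 298 CPM in obese mice against 266 to 375 CPM (median 341) in lean mice (log2 fold change 0.01 ± 0.11, adjusted p = 0.961). At 2 weeks it was 351 to 409.5 CPM (median 372) against 239 to 418.5 CPM (median 292) (log2 fold change 0.30 ± 0.10, adjusted p = 0.0202), a call lost without lean replicates 1, 2 or 4 (adjusted p = 0.0506 to 0.0721) and with only the compared groups in the fit (adjusted p = 0.128). In iWAT Abca1 passed no test, with log2 fold changes from 0.04 to 0.18 over the 4 times. Apoe was 6858 to 10195 CPM (median 7996) in eWAT of 2-week mice against 4275 to 7686 CPM (median 5308) in lean mice (log2 fold change 0.58 ± 0.15, adjusted p = 0.003), with overlap. In iWAT it rose in obese mice, with 6294, 4350.5, 9973, 4456 and 6936 CPM against 3099 to 4929.5 CPM (median 3599) in lean mice (log2 fold change 0.79 ± 0.18, adjusted p = 0.000861), and at 2 weeks, with 6619 to 10869.7 CPM (median 8631) against 4127 to 8395 CPM (median 5673) (log2 fold change 0.57 ± 0.17, adjusted p = 0.0177). The iWAT groups overlapped both times, and the 2-week call was lost without 2-week replicate 5 or lean replicates 3 or 5 (adjusted p = 0.0522 to 0.0588) and with only the compared groups in the fit (0.0885). In obese eWAT Apoe did not pass (log2 fold change 0.38 ± 0.16, adjusted p = 0.0776).

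Of the other LXR genes Mylip, whose product marks lipoprotein receptors for degradation, rose in eWAT at 2 weeks, with 124 to 145 CPM (median 139) in regression mice against 61.3 to 93.1 CPM (median 75.6) in lean mice (log2 fold change 0.80 ± 0.11, adjusted p = 2.98e-06) and no overlap. Its 6-week log2 fold change in eWAT was 0.42 ± 0.11 (adjusted p = 0.0202), lost without lean replicate 3 (adjusted p = 0.0725) and with only the compared groups in the fit (0.081). In obese iWAT Mylip rose by 0.37 ± 0.14 (adjusted p = 0.0391) without overlap, a call lost without obese replicates 2, 3 or 4 or lean replicates 1, 3 or 5 (adjusted p = 0.0527 to 0.103). Nr1h2, which encodes LXR beta, rose in eWAT at 2 weeks by 0.29 ± 0.06 (adjusted p = 0.000501), and its highest value, 108 CPM, belonged to the library with the lowest total. Nr1h3, which encodes LXR alpha, rose in iWAT at 2 weeks by 0.33 ± 0.10 (adjusted p = 0.0251), lost without 2-week replicates 1 or 3 or lean replicates 2 or 4 (adjusted p = 0.0537 to 0.0845) and with only the compared groups in the fit (0.122). Over the 6 genes of efflux 1 was higher in obese eWAT, 5 at 2 weeks, 2 at 6 weeks and 1 at 12 weeks, where 14.1%, 18.6%, 5.56% and 10.8% of all genes were. In iWAT they were 3, 2, 0 and 0, where 14.7%, 9.44%, 0.554% and 0.0216% of all genes were higher.

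In iWAT the cholesterol ester genes Soat1, Nceh1 and Lipa passed the test in obese mice and at no later time. Soat1 was 50.8, 16.5, 37.9, 35.7 and 25.2 CPM in obese mice against 6.83 to 25.1 CPM (median 15.8) in lean mice (log2 fold change 1.13 ± 0.39, adjusted p = 0.0225). Nceh1 was 82.9, 23.2, 46.7, 57.0 and 34.4 CPM against 9.80 to 28.4 CPM (median 23.3) (log2 fold change 1.26 ± 0.35, adjusted p = 0.00584), and Lipa had a log2 fold change of 0.67 ± 0.21 (adjusted p = 0.0134). All 3 had overlapping groups. The call of Soat1 was lost without obese replicate 1 or lean replicates 3 or 4 (adjusted p = 0.0593 to 0.0876) and that of Lipa without obese replicate 1 (adjusted p = 0.103). At 2 weeks none of the 5 lysosomal and storage genes was called in iWAT, where 9.44% of all genes were higher; the log2 fold changes of Soat1, Nceh1 and Lipa were 0.80 ± 0.37, 0.75 ± 0.33 and 0.52 ± 0.20 (adjusted p = 0.123, 0.112 and 0.0648). At 6 and 12 weeks no member was called in iWAT. Of the 34, 13 and 2 had an unadjusted edgeR p under 0.05, and DESeq2 called 1 at each time.

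The summed level of Soat1, Nceh1, Lipa and Abcg1 and that of the 10 macrophage markers (Cd68, Adgre1, Csf1r, Itgam, Cd14, Lyz2, Ctss, Trem2, Gpnmb and Mrc1) were set side by side for each mouse. In eWAT 1 mouse had the highest of both sums in each group, namely obese replicate 4, 2-week replicate 5, 6-week replicate 6 and 12-week replicate 1. There the sum of the 4 genes was 181 to 1175 CPM (median 363) in obese mice against 144 to 173 CPM (median 154) in lean mice, 434.1 to 1172 CPM (median 953) against 142 to 164 CPM (median 156) at 2 weeks, 162 to 1204 CPM (median 456.6) against 146 to 167 CPM (median 155) at 6 weeks and 164 to 891 CPM (median 666) against 133 to 169.9 CPM (median 150.3) at 12 weeks. All 10 macrophage markers rose in eWAT of obese, 2-week and 12-week mice, and 9 of 10 at 6 weeks. In iWAT 1 mouse had the highest of both sums at 2 weeks (replicate 5), 6 weeks (replicate 6) and 12 weeks (replicate 4). In obese iWAT replicate 1 had the highest sum of the 4 genes and replicate 3 that of the markers. The iWAT sum of the 4 genes was 259 to 548 CPM (median 376) in obese mice against 143 to 278 CPM (median 225) in lean mice, 334 to 623 CPM (median 391.03) against 196 to 432.3 CPM (median 232) at 2 weeks, 175 to 273 CPM (median 193) against 136 to 272 CPM (median 156) at 6 weeks and 157 to 274 CPM (median 182) against 142 to 243 CPM (median 153) at 12 weeks. Of the markers 10 of 10 rose there in obese mice and 2 of 10 at 2 weeks, and none was called later. None of the 10 markers had 0 counts when summed over the libraries of any group. The part of macrophages in the levels of the 4 genes was not tested.

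**Figure D4:**
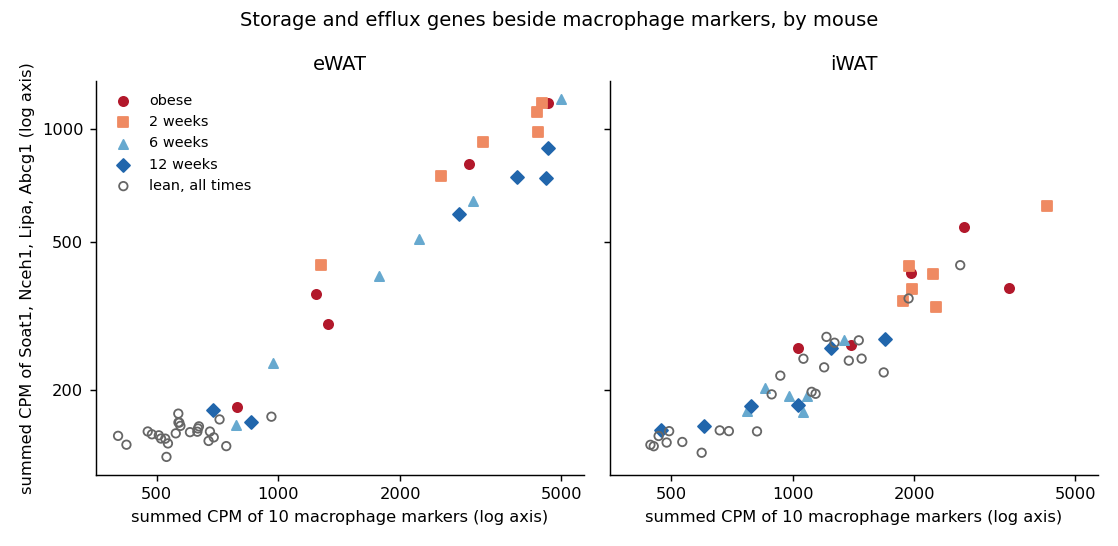
Summed level of Soat1, Nceh1, Lipa and Abcg1 (vertical, CPM, log axis) against the summed level of 10 macrophage markers (horizontal, CPM, log axis), 1 point per mouse, in eWAT (left) and iWAT (right); filled symbols are obese and regression mice, open circles all lean mice. In eWAT the points run from the lean cluster, at 961 CPM of macrophage markers or less, up to the 6-week mouse with 5007 CPM.

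The depots were compared within the same mice, as the eWAT log2 fold change minus that of iWAT. In obesity 1 of the 34 genes differed, where 1.32% of all genes did (0.671% higher, 0.651% lower in eWAT). It was Dhcr7, by 0.80 ± 0.19 (adjusted p = 0.0201), being 0.12 in eWAT and -0.73 in iWAT. At 2 weeks 8 genes had a higher and 2 a lower difference in eWAT, where 3.86% and 4.56% of all genes did (8.42% in either direction). Soat1 differed by 2.14 ± 0.50 (adjusted p = 0.00612), Nceh1 by 2.10 ± 0.51 (adjusted p = 0.00807), Lipa by 1.79 ± 0.42 (adjusted p = 0.00672) and Abcg1 by 1.52 ± 0.33 (adjusted p = 0.00369). Dhcr7 differed by 0.84 ± 0.19 (adjusted p = 0.00468), Stard4 by 0.66 ± 0.22 (adjusted p = 0.0487), Npc1 by 0.58 ± 0.19 (adjusted p = 0.0452) and Mylip by 0.54 ± 0.15 (adjusted p = 0.0228). Mvk and Ebp had lower differences in eWAT, with -0.56 ± 0.16 and -0.44 ± 0.11 (adjusted p = 0.0248 and 0.0123). Of the macrophage markers 6 of 10 also differed upwards at 2 weeks, and 4 of 6 adipocyte markers downwards; their part was not tested. For Insig1 the depots differed by -0.02 ± 0.26 at 2 weeks (adjusted p = 0.989).

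The 2-week depot calls of Stard4 and Npc1 each failed without any of 9 mice, those of Mvk and Mylip without any of 2, and the obesity call of Dhcr7 without any of 6 (limma on per-mouse differences). For Stard4 the mice were 2-week replicates 3, 4, 5 or 6 or lean replicates 1, 2, 3, 5 or 6 (adjusted p = 0.0501 to 0.122), and for Npc1 2-week replicates 3, 4, 5 or 6 or lean replicates 1, 2, 3, 4 or 6 (adjusted p = 0.0503 to 0.12). For Mvk they were 2-week replicate 6 or lean replicate 2 (adjusted p = 0.0802 to 0.0839), for Mylip lean replicates 1 or 2 (adjusted p = 0.0563 to 0.106), and for Dhcr7 in obesity obese replicates 1, 2 or 4 or lean replicates 4, 5 or 6 (adjusted p = 0.0544 to 0.119). Without the mouse as a block the 2-week calls of Mvk (adjusted p = 0.261), Dhcr7 (0.133), Stard4 (0.273), Mylip (0.0556) and Npc1 (0.0777) and the obesity call of Dhcr7 (0.527) were lost. Those of Stard4 (0.0706) and Npc1 (0.0691) were also lost without a count filter, and that of Stard4 with limma on all mice (0.0501). At 6 and 12 weeks no member differed between depots, where 0.597% and 0.0542% of all genes did (edgeR; 9 and 6 had an unadjusted p under 0.05, all upwards).

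**Figure D5:**
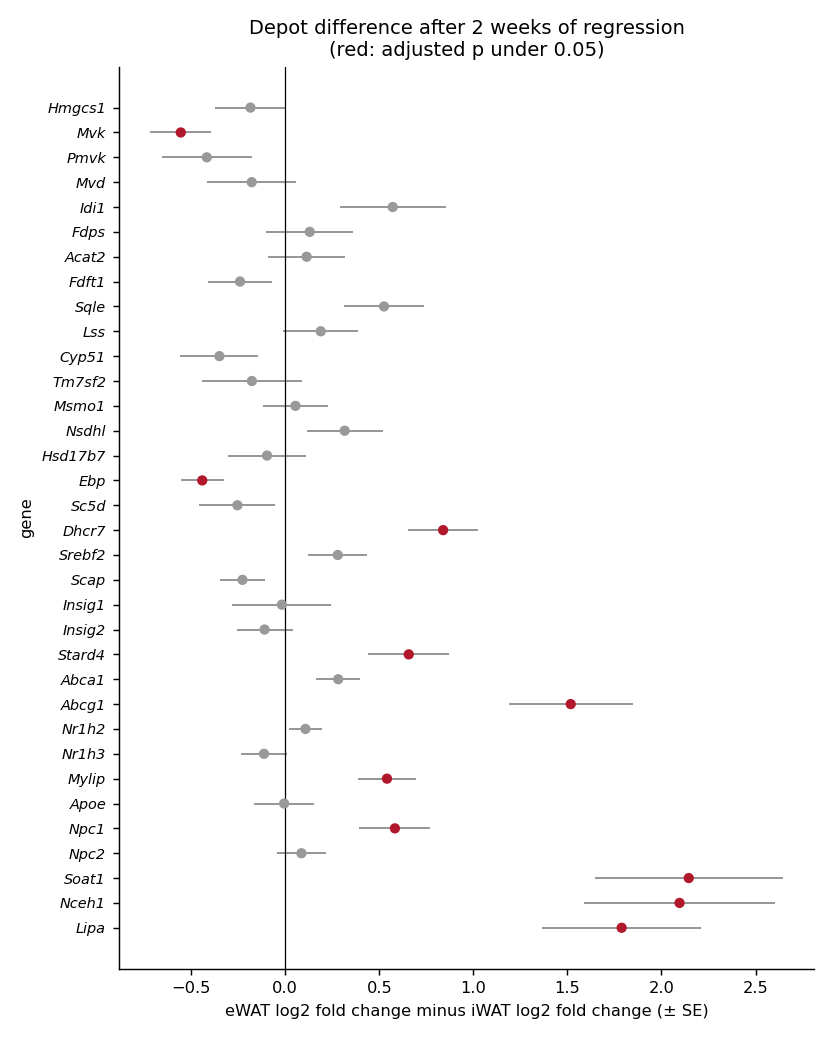
Difference between depots of the 2-week log2 fold change (eWAT minus iWAT, ± SE of the fit) for each of the 34 genes, listed by role; red points have an adjusted p under 0.05. Soat1, Nceh1, Lipa and Abcg1 lie furthest to the right, between 1.52 and 2.14, and Mvk and Ebp are the red points left of zero.

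In lean mice, averaged over the 4 lean groups, 7 genes were higher and 14 lower in eWAT than in iWAT, where 28.1% and 31.2% of all genes were. Among the lower genes Insig1 had a difference of -0.70 ± 0.09 (log2, adjusted p = 1.73e-08), Abcg1 of -0.53 ± 0.12 (adjusted p = 0.000179), Lipa of -0.53 ± 0.15 (adjusted p = 0.00238) and Acat2 of -0.44 ± 0.07 (adjusted p = 1.08e-06). Cyp51 was higher by 0.46 ± 0.07 (adjusted p = 4.52e-07) and Insig2 by 0.32 ± 0.05 (adjusted p = 1.09e-06). The other 15 calls lay between -0.34 and 0.22. Of the 10 macrophage markers 8 were lower in eWAT of lean mice. Between lean mice at the 12-week time and lean mice at the obesity time none of the 34 differed in either depot, where 0.105% of all genes did in eWAT (0.0419% higher, 0.0628% lower) and 0.496% in iWAT (0.309% higher, 0.187% lower). In each depot 6 had an unadjusted edgeR p under 0.05, and DESeq2 called none.

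Beyond the 34, 32 other genes of the pathway were tested. In eWAT of obese mice 5 rose and 1 fell, where 14.1% of all genes rose and 9.31% fell, and at 2 weeks 8 rose and 6 fell, where 18.6% and 17.1% did. At 6 weeks 3 rose and 1 fell, where 5.56% and 2.02% did, and at 12 weeks 3 rose and 4 fell, where 10.8% and 4.51% did. In iWAT of obese mice 4 rose and 3 fell, where 14.7% and 15.5% of all genes did, and at 2 weeks 2 rose and 3 fell, where 9.44% and 9.37% did; none was called later. Their median log2 fold change lay between -0.07 and 0.05 in all 8 comparisons with lean mice. The genes named next are single calls and do not stand for the list. Pltp, which moves phospholipid between lipoproteins, rose in eWAT of obese mice with a log2 fold change of 1.53 ± 0.25 (adjusted p = 5.44e-05) and at 2 weeks with 1.81 ± 0.25 (adjusted p = 1.93e-06), and in iWAT of obese mice with 1.28 ± 0.20 (adjusted p = 8.68e-06). Ch25h, which makes 25-hydroxycholesterol, rose in eWAT at 2 weeks with 1.85 ± 0.62 (adjusted p = 0.0178). Abca9, a relative of Abca1, rose in eWAT with 0.86 ± 0.19 (adjusted p = 0.0011) in obese mice and 0.93 ± 0.18 (adjusted p = 0.000141) at 2 weeks, and Lrp1, a large endocytic receptor, with 0.60 ± 0.18 (adjusted p = 0.0136) in obese mice. Those that fell in eWAT at 2 weeks included Lpcat3 with -0.61 ± 0.16 (adjusted p = 0.00328), an LXR target that remodels phospholipids, and Scarb1 with -0.54 ± 0.15 (adjusted p = 0.00371), the receptor for high-density lipoprotein. In iWAT at 2 weeks Lpcat3 fell with -0.61 ± 0.16 (adjusted p = 0.00804).

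In the authors' deposited table the 34 genes had 15, 29, 6 and 6 calls in eWAT at obesity, 2, 6 and 12 weeks and 20, 18, 1 and 1 in iWAT, at their adjusted p under 0.05. These included all of the 15, 28, 6 and 6 calls made here in eWAT and the 20 and 18 made here in iWAT, with the same sign in each. In the fits made here 15, 28, 6 and 6 of 34 genes were called in eWAT, where 23.4%, 35.7%, 7.58% and 15.3% of all genes were, and 20 and 18 in iWAT in obese mice and at 2 weeks, where 30.2% and 18.8% were. The share of all genes called in the authors' table was not counted.

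The mice fall into a pair of series by their numbers, with the higher numbers in replicates 1 to 3 and the lower in replicates 4 to 6. Fitted on their own, with 3 mice a group (2 obese mice in the lower series), the series gave 6 and 3 calls among the 34 in obese eWAT, 21 and 25 at 2 weeks, 0 and 0 at 6 weeks and 3 and 0 at 12 weeks, replicates 1 to 3 first. In iWAT they gave 13 and 5 in obese mice, 13 and 23 at 2 weeks and none later. Over all genes the eWAT calls were 607 and 1513 in obese mice, 2108 and 3679 at 2 weeks, 0 and 0 at 6 weeks and 672 and 1 at 12 weeks. The iWAT calls over all genes were 2583 and 1327 in obese mice, 700 and 2079 at 2 weeks, 3 and 5 at 6 weeks and 7 and 3 at 12 weeks. Of the 108 calls within a depot that were made on all mice, 57 were also made in the series of replicates 1 to 3 and 49 in the other, and all 108 kept their direction in both.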

How the data were processed

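The deposited tables hold counts per gene symbol for each library, with no normalization, per the file headers. STAR 2.4.1c, the build mm10, R 4.2.2 and DESeq2 1.38.3 are named per the submitters' processing notes; the counting program, the annotation and the handling of strand are unknown here, so reads of overlapping or antisense genes and of near-identical copies may be shared. The authors' deposited comparison tables give a mean normalised count (a signal), a log2 fold change with its standard error, a test score and p-values; these were used only for the count of the authors' calls.

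Each depot was fitted over its 47 libraries with edgeR 4.0.16 (R 4.3.3; TMM, default count filter, quasi-likelihood F-test). Tests were two-sided and p-values were adjusted by Benjamini-Hochberg over the 14323 (eWAT) or 13899 (iWAT) genes tested, and a call is an adjusted p under 0.05. A log2 fold change is followed by ± its standard error. Where members are counted at an unadjusted p under 0.05, the share of all genes at that threshold is not given. The same holds for counts of members whose groups did not overlap. Such counts describe the members alone. Each fold change is obese or regression mice over lean mice of the same time. The depots were compared over 94 libraries with mouse as a block, because the titles give the mouse of each library; 14749 genes were tested. CPM used TMM library sizes. Exon lengths and positions came from GENCODE M21. The members and all lists were chosen with earlier results of these data known. Genes given by mouse were, per comparison, up to 5 called in each direction with the largest change, and the control and export genes. Genes outside that rule, the libraries singled out, the sum of 4 storage and efflux genes and the printed promoters were chosen after their values were seen.

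Alternatives were DESeq2 1.42.0, edgeR with DESeq2 size factors, all genes kept, a block for the replicate number, the mouse series as a term or fitted apart, the compared groups alone, limma 3.58.1 on per-mouse differences, and each library left out. The scripts were tested on simulated counts. Chi-square per degree of freedom between replicates was at least 3.63 in eWAT and 7.11 in iWAT, so each library counted as 1 replicate. Libraries of a group are biological replicates per the labels. Some genes of the pathway are not reported here.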

Additional observations from a re-analysis of the deposited data

Results flagged for a closer look

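Single mice stood apart from their group in 11 of 188 gene and group combinations, by the gap to the nearest mouse relative to the range of the group; chance alone gives about 1 in 20. In eWAT the low values were Soat1 in 2-week replicate 1 (32.7 CPM), Abca1 in 6-week replicate 4 (271 CPM) and Insig2 in lean 6-week replicate 5 (105 CPM). The high values in eWAT were Apoe in 6-week replicate 6 (8443 CPM), Nceh1 in lean 6-week replicate 5 (32.9 CPM), Npc1 in lean 12-week replicate 6 (48.2 CPM) and Fdps in lean obesity-time replicate 3 (50.9 CPM). In iWAT they were Insig1 in 2-week replicate 3 (378 CPM), Srebf2 in lean 2-week replicate 2 (132 CPM), Abca1 in obese replicate 3 (406.5 CPM) and Hmgcs1 in lean obesity-time replicate 3 (384 CPM). The lean 6-week eWAT library of replicate 5, which stood apart for Insig2 and Nceh1, also held epididymal duct markers at 5784 CPM.

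The difference from lean mice changed between obesity and 2 weeks in eWAT by -1.98 (log2) for Hmgcs1, -1.06 for Mvk, -1.48 for Hsd17b7, -1.38 for Sc5d, -2.05 for Insig1 and 0.31 for Nr1h2. In iWAT it changed by -1.68 for Hmgcs1, -1.28 for Hsd17b7, -1.48 for Stard4 and 0.35 for Nr1h2. Between 2 and 6 weeks the change in eWAT was 1.80 for Pmvk, 1.71 for Mvd, 1.75 for Lss and 2.53 for Insig1, and in iWAT 1.52 for Stard4. These are edgeR tests of the change itself.

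Between the depots, as eWAT minus iWAT, the obesity difference of Dhcr7 was 0.80 (log2). At 2 weeks the values were 2.14 for Soat1, 2.10 for Nceh1, 1.79 for Lipa, 1.52 for Abcg1, 0.84 for Dhcr7, 0.66 for Stard4, 0.58 for Npc1, 0.54 for Mylip, -0.56 for Mvk and -0.44 for Ebp.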

How the results depend on the processing

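No member called in a main fit reversed its direction in that comparison under any alternative run. Changes of sign in members without a call are not reported here. Left out singly, the libraries gave 11 to 16 genes called in obese eWAT, 26 to 28 at 2 weeks, 2 to 6 at 6 weeks and 5 to 7 at 12 weeks. In iWAT they gave 15 to 20, 17 to 20, 0 to 1 and 0 to 1. For the change from obesity to 2 weeks the range was 2 to 8 in eWAT (3 without 2-week replicate 5, 2 without obese replicate 1) and 2 to 5 in iWAT (2 without 2-week replicate 1, lean obesity-time replicates 1, 2 or 4 or obese replicates 2, 4 or 5), and from 2 to 6 weeks 0 to 9 in eWAT and 0 to 4 in iWAT, where 14 and 23 of 24 single libraries moved the count by over 1.5 times. The highest and lowest of these in eWAT were 9 without 6-week replicate 6 and 0 without 2-week replicate 5. Over all genes these fits gave 450 and 33 calls, against 114 with all libraries. Lean mice over time gave 0 to 0 in eWAT and 0 to 1 in iWAT, the 1 without lean obesity-time replicate 3. For the depot differences a mouse was left out at a time and limma on per-mouse differences took the place of edgeR; limma with all mice gave 1, 9, 0, 0 and 19 calls. The ranges were 0 to 1 in obesity, 7 to 11 at 2 weeks, 0 to 4 at 6 weeks (4 without 6-week replicate 4), 0 to 3 at 12 weeks (3 without 12-week replicate 3, 2 without replicate 6 and 1 without lean replicate 4) and 17 to 21 in lean mice. In iWAT the single calls at 6 and 12 weeks came without 6-week replicate 1 and without lean 12-week replicate 6.

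Other settings moved these counts, and the cause was not tested. A series fitted alone also has fewer mice, so series and number of mice cannot be told apart there. In each series fit listed next, the calls over all genes were also fewer than with all mice. With replicates 4 to 6 alone 3 genes were called in obese eWAT, 0 at 6 and at 12 weeks, 0 for both changes between times, and 5 in obese iWAT with 0 for both iWAT changes. With replicates 1 to 3 alone the counts were 6, 0 and 3 in eWAT, 2 and 0 for its changes, 13 in obese iWAT and 2 and 0 for the iWAT changes. The change from obesity to 2 weeks gave 10 calls in eWAT and 2 in iWAT with only the compared groups in the fit. Over all genes that setting gave 488 and 290 calls, against 834 and 556 in the main fit. The change from 2 to 6 weeks in eWAT gave 8 with DESeq2. It gave 7 with the DESeq2 size factors, with the replicate block or with the series as a term. Over all genes each of these settings also gave more calls than the main fit. In iWAT the change from 2 to 6 weeks gave 4 with DESeq2 and 3 with the compared groups alone. It gave 2 with the series as a term and 0 without a count filter. Over all genes these gave 136, 45, 59 and 4 calls in that order, against 30 in the main fit. DESeq2 gave 1 at 6 and 1 at 12 weeks in iWAT, with more calls over all genes than the main fit at both times. Without the mouse (no replicate block) the depot differences gave 0 in obesity, 5 at 2 weeks, 1 at 6 weeks, 1 at 12 weeks and 10 in lean mice. Over all genes they gave 36, 590, 102, 17 and 8286 calls, against 195, 1242, 88, 8 and 8741 in the main fit.

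Replicate numbers were not found to pair mice within a depot: deviations of same-numbered libraries correlated from -0.596 to 0.56 in eWAT, with 6 of 23 pairs over 0.1, and from -0.584 to 0.629 in iWAT, with 10 of 23. The replicate block changed 1 of 108 named calls, that of Npc1 at 6 weeks. DESeq2 kept 108 of 108, the compared groups alone 95 of 108, no count filter 130 of 140 and DESeq2 size factors 138 of 140. The library of 1.32 M counts limits the precision of low genes in eWAT at 2 weeks.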

Other observations

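At 12 weeks some synthesis genes of regression mice split by the series of mouse numbers. The share of all genes that did so was not counted, so the split cannot be called particular to these genes. In eWAT of 12-week mice all of replicates 1 to 3 lay above all of replicates 4 to 6 for 7 of 18 enzymes and none lay below, and in iWAT for 9 of 18, again with none below. In lean mice of that time this was so for 1 of 18 in eWAT and 5 of 18 in iWAT, and in the other groups of 6 for 0 to 4 of 18. Sqle measured 55.6, 46.3, 52.3, 16.0, 21.2 and 29.6 CPM in eWAT of 12-week mice, replicates 1 to 6 in order, and 76.0, 44.2, 60.2, 17.9, 23.4 and 37.7 CPM in iWAT. Srebf2 measured 142, 150.0, 115, 81.9, 79.9 and 71.8 CPM in eWAT and 105, 160.2, 93.6, 67.6, 61.5 and 71.5 CPM in iWAT of the same mice. In lean mice of that time Srebf2 measured 92.0, 108, 125, 80.3, 109 and 98.8 CPM in eWAT and 68.4, 80.5, 91.9, 105, 105 and 101 CPM in iWAT, with the iWAT order of the series turned round. The labels give the mouse numbers and no other difference between the series.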
